A study of Mus musculus with 360 samples.

Results

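The liver of mice exposed to 50 ppm of 1,4-dichlorobenzene (1,4-DCB) was compared with the liver of mice at 0 ppm. The members were the libraries labelled as left liver lobe, 1,4-DCB and used in the analysis, at those concentrations. They were 12 libraries of 360 in the series, 326 of which are labelled as used. The 5 exposed animals carry the numbers 301 to 305, and the 7 controls the numbers 1, 2, 3, 4, 5, 7 and 10. All were female B6D2F1/Crl (BDF-1) mice, 9 weeks old, a first-generation hybrid strain with no transgene named in the labels, and tissue was taken on study day 5. The labels give the exposure in ppm and do not name its route. RNA was read by TempO-Seq on the S1500+ v1.2 mouse panel: 2 neighbouring probes bound to a target RNA are joined, and the products are sequenced and counted. Beside the members, livers of the same series at 1 ppm (5 animals), 10 ppm (4), 150 ppm (4) and 400 ppm (5) served as context. The whole lobe was measured, so that fewer cells of a type and less RNA per cell cannot be told apart.

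1,4-DCB, long used in moth repellents, is oxidised by cytochrome P450 enzymes, and liver tumours in mice are among its known effects. Hepatocytes meet such compounds with nuclear receptors. CAR and PXR raise P450 enzymes, transferases and esterases, and NRF2 raises glutathione transferases and other enzymes that disarm reactive products. AhR raises the Cyp1 family. Hepatocytes of the adult liver rarely divide, and an injury or a CAR activator can bring them back into the cell cycle, in which the mitosis genes are switched on late.

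The exposed libraries held 14.8 M to 36.5 M counts (M, 1000000) and the controls 15.1 M to 37.2 M. These totals are attenuation-adjusted and are not numbers of reads sequenced. The 59 probes whose values share a visible whole-number factor held 62.5% to 65.3% of the counts. Levels are given in CPM, counts per 1000000 counts of the TMM-scaled library, and changes in log2 with the standard error (SE) of the edgeR fit. CPM differs in efficiency between probes and is compared here between animals, not between genes. The 10 probes of the hepatocyte list summed to 223328 to 262836 CPM in controls and to 204617 to 229016 CPM in exposed animals, with animal 303 lowest. The 1 probe of the lung list was at 0 in all 12 libraries. Of 13 lists of markers of other or resident cell types, 0 held a probe that was called.

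At 50 ppm the liver held more RNA of Gsta1, Gstp1, Ces2c and Ephx1 in all 5 animals than in any used control. The median over the mitosis genes was above the control mean in 4 of the 5. Among controls, animals 1 and 2 also had a mitosis median above that mean, at 0.66 and 1.50 on the log2 scale. Of the 3 shallow controls that the labels leave out, animal 8 was above all exposed animals for Gsta1 and Ces2c, and animal 6 for Gsta1. For Ephx1 none of the 3 exceeded the used controls. Of 2601 probes tested, 20 were called at an edgeR adjusted p under 0.05 (0.769%). The 19 that rose (0.73%) fell into groups by known role, made after their values were seen: 6 enzymes of detoxification, namely Gsta1, Gm3776, Gsta2, Gstp1, Ephx1 and Ces2c, and 13 genes of replication and division. The 13 are all the genes that rose other than those 6, and 7 of them are in the DNA replication or mitosis lists. Cpsf4l was the only called probe that fell. At an unadjusted p under 0.05 there were 229 probes, and the median change of all probes was 0.01. The call count was sensitive to single animals: without exposed animal 303 it was 3, and without exposed animal 304 it was 57.

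**Figure D1:**
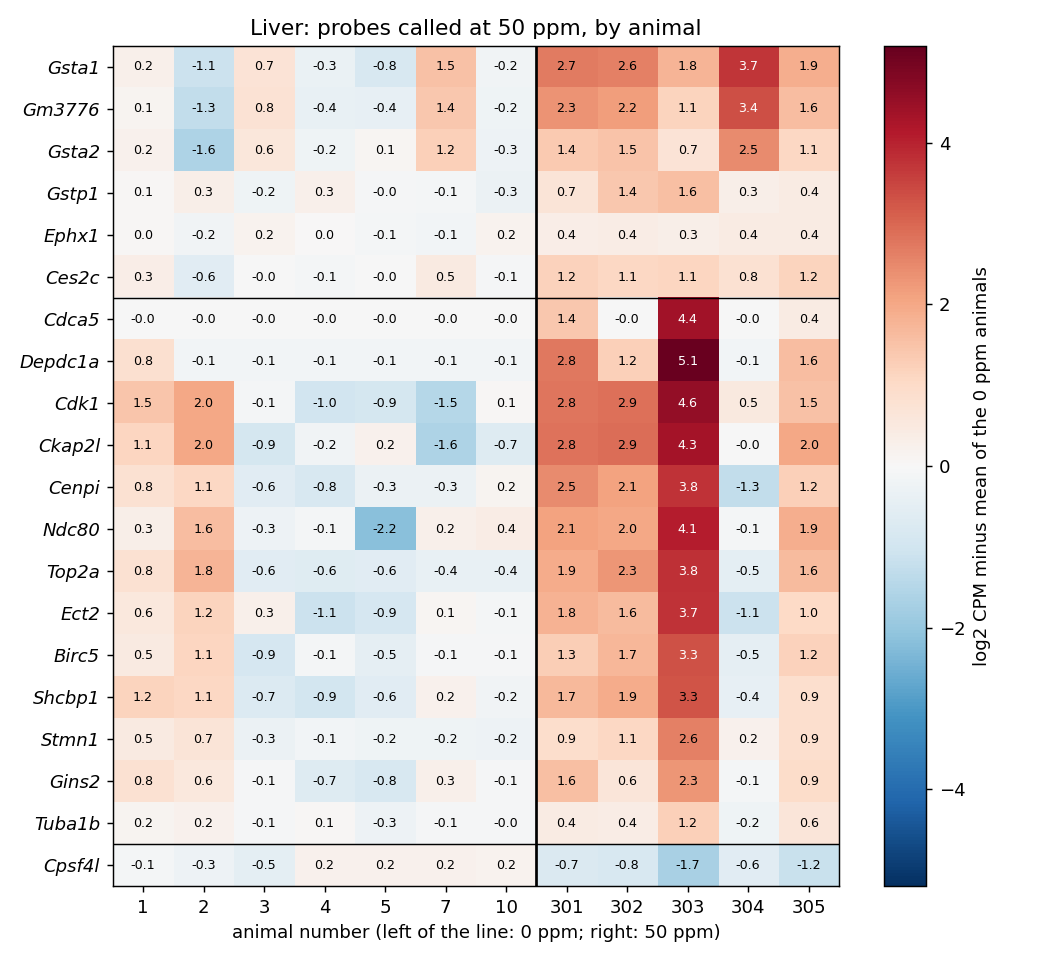
Liver log2 CPM minus the mean of the 0 ppm animals, for the 20 called genes (rows: 6 detoxification genes, 13 division genes, then Cpsf4l) in each of the 12 animals (columns, 0 ppm left of the line). The detoxification genes are above the control mean in all 5 exposed animals, while the division genes are darkest in animal 303 and at control level in animal 304.

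Gsta1, an alpha-class glutathione transferase that couples glutathione to reactive molecules and reduces lipid peroxides, shared the smallest adjusted p with Ces2c. Its controls ranged from 18.4 to 116.8 CPM with a median of 36.2. The exposed animals 301 to 305 were at 261.7, 247.4, 137.1, 539 and 152.2 CPM. All 5 lay above the highest control. The change was 2.47 ± 0.35 on the log2 scale (edgeR adjusted p = 5.18e-06; exact permutation p = 0.00253, two-sided).

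Gm3776, a gene model in the same cluster on chromosome 9, followed the same order of animals. Controls were at 16 to 102.6 CPM (median 33.4) and the exposed animals at 197.4, 176.7, 86.2, 400.1 and 117.9 CPM. Animal 303 lay inside the control range and the other 4 above it. The change was 2.11 ± 0.32 (edgeR adjusted p = 2.2e-05). Gsta2, another alpha-class member, had controls at 14.6 to 105.4 CPM (median 48.0) and exposed animals at 116.1, 125.1, 74.1, 249.3 and 94.6 CPM. Here 3 of 5 exposed animals exceeded all controls, and the change was 1.35 ± 0.34 (edgeR adjusted p = 0.0397). Animal 304 was the highest and animal 303 the lowest exposed animal for all these alpha-class genes. Gsta2 was at 1.50 and no longer called without animal 303 (edgeR adjusted p = 0.0732), and at 0.96 and not called without animal 304 (edgeR adjusted p = 0.172), whereas Gsta1 and Gm3776 were called without either. Both were high in control livers that the labels leave out for depth, and with all libraries in the fit Gsta1 was at −0.043 and Gm3776 at −0.66, neither of them called. With only the left-out control of animal 8 added, Gsta1 was at 0.83 and not called (edgeR adjusted p = 0.875).

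These genes are alike in sequence near their starts, Gsta1 and Gm3776 most of all. The start sequences of Gsta1, Gm3776 and Gsta2 from RefSeq (GRCm38.p6) show this likeness. Each line gives the 200 bases before the annotated start, 5′ to 3′ on the gene's strand. The 29-base run in capitals is the longest that Gsta1 and Gsta2 share in the window from 250 bases before to 50 bases after the start, and it is present in Gm3776 too. Gsta1 and Gm3776 share a longer run of 193 bases, most of what is printed.

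Gsta1, chr9:78230469-78230668, plus strand: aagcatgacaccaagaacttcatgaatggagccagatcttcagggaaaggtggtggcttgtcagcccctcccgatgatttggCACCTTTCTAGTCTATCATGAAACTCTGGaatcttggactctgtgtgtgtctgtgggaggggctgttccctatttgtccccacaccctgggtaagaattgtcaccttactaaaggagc

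Gm3776, chr9:78256929-78257128, plus strand: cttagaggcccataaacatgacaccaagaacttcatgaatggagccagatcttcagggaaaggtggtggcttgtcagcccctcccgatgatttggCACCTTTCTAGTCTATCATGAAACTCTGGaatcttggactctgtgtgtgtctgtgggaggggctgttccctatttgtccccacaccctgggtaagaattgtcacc

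Gsta2, chr9:78347146-78347345, minus strand: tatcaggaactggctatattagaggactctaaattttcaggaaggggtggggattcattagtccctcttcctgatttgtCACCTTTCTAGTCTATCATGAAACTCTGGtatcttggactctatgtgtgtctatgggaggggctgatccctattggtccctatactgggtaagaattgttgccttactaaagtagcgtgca

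The printed bases lie before the start of the RNA, so they do not show whether the probes share reads. The probe sequences were not used here. Reads of these paralogs may be split or shared between probes, which was not tested, so the changes of the Gsta genes are not counted as independent of each other. The core of the antioxidant response element, TGACNNNGC on either strand, was found in none of these 3 windows of 300 bases, in 14% of the windows of 1731 genes tested in liver and in 12.5% of those of 27025 genes in the table. Its absence says only that these letters do not occur there.

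Gstp1, the pi-class transferase (chr19:4035411-4037912, GRCm38.p6), was an abundant transcript with controls at 1206 to 1802 CPM (median 1423). The exposed animals were at 2329, 3839, 4354, 1829 and 1985 CPM. All 5 were above all used controls, animal 304 by a narrow margin, and animals 302 and 303 stood highest. The controls left out for depth, animals 6, 8 and 9, were at 2174, 2820 and 1206 CPM. The change was 0.95 ± 0.20 (edgeR adjusted p = 0.00668). Without animal 303 it was 0.74 and not called (edgeR adjusted p = 0.167). Gstp1 and the alpha-class genes thus ranked the exposed animals differently.

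Ces2c (chr8:104847068-104854483), a carboxylesterase that cleaves ester bonds of drugs and lipids, was above all controls in every exposed animal. Controls ranged from 51.3 to 106.9 CPM (median 75.6), and the exposed animals were at 179.7, 160.6, 165.4, 133.3 and 173.7 CPM. The change was 1.04 ± 0.15 (edgeR adjusted p = 5.18e-06; exact permutation p = 0.00126, the smallest that 7 against 5 animals allow). Ces2c was called in 27 of 28 alternative settings, more than any other called gene. The exception was the fit with all libraries, at 0.82 (edgeR adjusted p = 0.137). In the controls left out for depth, animals 6, 8 and 9, Ces2c was at 126.8, 250.3 and 133.998 CPM.

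Ephx1 (chr1:180989556-181017569), the microsomal epoxide hydrolase, opens epoxides such as those that P450 enzymes form. Controls were at 81.8 to 105.2 CPM (median 93) and exposed animals at 117.6, 119.3, 111.9, 122.4 and 124.7 CPM. The groups did not overlap, though the change was small, at 0.37 ± 0.10 (edgeR adjusted p = 0.0434). The change was of like size without animal 303, at 0.38, and without animal 304, at 0.34, and was not called in either case (edgeR adjusted p = 0.159 and 0.0711). Over all probes, 8 of 2601 (0.308%) had all 5 exposed animals above all controls, and Gsta1, Ces2c, Gstp1 and Ephx1 were 4 of these 8.

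Cpsf4l (chr11:113698171-113710167), named for its likeness to a subunit of the mRNA cleavage and polyadenylation machinery, was the 1 called gene that fell. Controls were at 40.6 to 68.4 CPM (median 66.2), and the exposed animals at 34.8, 32.9, 17.7, 38.7 and 25.9 CPM. All 5 exposed animals lay below the lowest control, as for 5 of 2601 probes (0.192%). Cpsf4l fell by 0.98 ± 0.23 (edgeR adjusted p = 0.021; exact permutation p = 0.00126), and the call was lost without animal 303 (edgeR adjusted p = 0.169).

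Among 42 probes tested in the list of CAR and PXR targets, 5 rose and 0 fell, with a median of 0.10. Of 35 in the NRF2 list, 5 rose and 0 fell, with a median of 0.11, against a median of 0.01 and 0.73% called higher for all probes. The lists share Gsta1, Gsta2, Gstp1 and Ephx1. These lists, like the others below, were chosen with earlier results of these data known, so their counts are descriptions. The usual indicator of CAR activity, Cyp2b10, was not among those called. Its controls were at 52.9 to 101.5 CPM (median 70.7) and the exposed animals at 85.9, 110.5, 51, 93.8 and 61.9 CPM. The groups overlapped over nearly the whole range, and the change was 0.16 ± 0.25 (edgeR adjusted p = 0.954). Cyp2c55, a P450 that responds strongly to CAR and PXR activators, was at 21 to 48.7 CPM in controls and at 91.6, 69.9, 26.1, 92.2 and 42.3 CPM in the exposed animals. 3 animals were above all controls and animals 303 and 305 were not, and the change of 0.98 ± 0.29 did not pass (edgeR adjusted p = 0.0749).

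The cell division genes gave a different pattern over animals. Cdk1, the kinase that drives entry into mitosis, had controls at 0.164 to 2.75 CPM (median 0.556). The exposed animals were at 4.72, 5.04, 16.7, 0.896 and 1.92 CPM. Animals 301, 302 and 303 were above all controls and animals 304 and 305 were inside their range. The change was 2.60 ± 0.55 (edgeR adjusted p = 0.00668; exact permutation p = 0.0164). Without animal 303 it was 1.68 and was not called (edgeR adjusted p = 0.366).

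Top2a, the topoisomerase that untangles sister chromatids, had controls at 2.67 to 14.6 CPM (median 3.16) and exposed animals at 16.4, 20.9, 59.8, 2.89 and 13.2 CPM. Animal 303 was the highest, and animal 304 lay near the lowest control. The change was 2.09 ± 0.53 (edgeR adjusted p = 0.0382). Birc5, the survivin subunit of the complex that corrects chromosome attachment, had controls at 3.40 to 13.5 CPM and exposed animals at 15.2, 21.2, 62.9, 4.51 and 14.5 CPM. Here 4 animals exceeded all controls and animal 304 did not, and the change was 1.77 ± 0.43 (edgeR adjusted p = 0.0285).

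The other called genes of this kind were Ndc80 and Cenpi of the kinetochore, Ect2 and Shcbp1 of cytokinesis, Ckap2l and Stmn1, which act on spindle microtubules, the alpha-tubulin Tuba1b, Gins2 of the replicative helicase, Cdca5 (sororin), which keeps sister chromatids joined, and Depdc1a. Their changes ran from 0.56 for Tuba1b to 6.16 for Cdca5. The highest values rested on few counts. Cdca5 had 0 counts in the 7 controls together and 51 in the exposed animals, 45 of them in animal 303. Its pooled level was at least 17.5-fold higher by the lower counting limit of the ratio, and 22.3-fold over a floor of 3 counts for the whole control group. Depdc1a had 3 control counts, all in animal 1, and its pooled level was 0.82 CPM in exposed animals against 0.016 CPM in controls, a ratio of 50.2 with a counting interval of 16.8 to 247. These limits cover counting error only. Without animal 303 the fitted change was 3.31 for Cdca5 and 3.49 for Depdc1a, and neither was called.

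In all 13 division genes animal 303 was the highest exposed animal and animal 304 did not exceed the highest control. None of the 13 was called without animal 303, and all 13 were called without animal 304. The calls also moved with the controls. Of the 13, 2 were called without control 3, 4 or 5, and 3 without control 7 or 10. Without control 1 the number was 12, and without control 2 it was 13. None of the 13 was called with limma-voom, or in a fit of the 1,4-DCB groups alone or of the 0 and 50 ppm groups alone, where 11 were tested, and all 13 were called with DESeq2. The exact permutation test over animals gave p = 0.0543 for Cenpi and p = 0.0833 for Ect2. It gave a p under 0.05 for 18 of the 20 called genes. These genes were chosen on the same difference in the same animals, so this count is not separate support for the calls.

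The 49 tested probes of the mitosis list had a median change of 1.63, with 46 of them positive, 6 called up and 0 called down, against 0.73% called up over all probes. Their median deviation from the control mean was 1.60 in animal 301, 1.69 in animal 302, 2.86 in animal 303, −0.18 in animal 304 and 1.18 in animal 305. Controls themselves spread from −0.65 in animal 5 to 1.50 in animal 2. Control 2 was thus about as high as animals 301 and 302, and animals 101 and 102 at 1 ppm, at 1.33 and 1.44, were above animal 305. A 10 ppm animal, number 203, stood at 2.79, near animal 303, and the other 3 animals of that group at −0.33 to −0.07. In the list of DNA replication genes 1 of 35 probes rose, Gins2, and the median was 0.14. With limma-voom the mitosis list had a median of 1.46 and 0 called. Without animal 303 its median was 1.11 and 0 of its probes were called, and without animal 304 it was 1.89 with 20 called.

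The other 28 lists with a probe tested held none that was called against 0 ppm. Among them, targets of PPAR alpha, the receptor that governs fat oxidation, had a median of −0.02 over 25 probes. Targets of p53 had 0.01 over 19, cholesterol synthesis −0.05 over 15, the acute phase −0.05 over 15, interferon response −0.01 over 18 and heat shock 0.03 over 19. The 6 tested AhR targets had a median of 0.03.

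Cyclins and a further kinetochore motor showed values of like size just outside the threshold. Ccnb1, the partner of Cdk1, changed by 2.45 ± 0.69 (edgeR adjusted p = 0.0627). Ccna2, the cyclin of S phase and early mitosis, had 2.05 ± 0.56, and Cenpe had 2.04 ± 0.55, both at an edgeR adjusted p of 0.0523. Each was highest in animal 303 and at control level in animal 304.

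Promoters of division genes commonly carry CCAAT boxes, bound by NF-Y, and the CHR element TTTGAA, and those of Cdk1 and Top2a are printed to show their arrangement. Capitals mark CCAAT and TTTGAA on either strand, and bases are the 200 before the RefSeq start (GRCm38.p6). In Cdk1, 4 runs are in capitals, and in Top2a 7.

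Cdk1, chr10:69352913-69353112, minus strand: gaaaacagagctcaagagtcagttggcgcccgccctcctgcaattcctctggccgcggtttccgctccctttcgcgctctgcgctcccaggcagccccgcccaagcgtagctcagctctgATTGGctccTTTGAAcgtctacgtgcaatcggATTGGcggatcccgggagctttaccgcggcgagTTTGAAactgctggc

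Top2a, chr11:99024190-99024389, minus strand: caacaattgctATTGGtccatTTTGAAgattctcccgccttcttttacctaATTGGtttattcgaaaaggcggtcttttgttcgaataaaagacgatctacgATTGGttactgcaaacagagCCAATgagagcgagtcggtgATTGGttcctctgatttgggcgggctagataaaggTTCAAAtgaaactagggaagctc

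Of the 20 called genes, 17 had a promoter in the table, all but Stmn1, Shcbp1 and Gins2. TTTGAA was found within the 300-base windows of 7 of the 17, of 15.1% of the 1731 genes tested in liver and of 18.1% of all 27025 genes. CCAAT was found in 9 of the 17, in 41.5% of the genes tested and in 37.9% of all genes. The E2F forms TTTCCCGC and TTTGGCGC were found in 0 of the 17, in 2.31% and 1.33% of the genes tested, and in 1.11% and 0.537% of all genes. GCGTG, the core of the AhR element, was found in 9 of the 17 (52.9%), near the 49.3% of the genes tested, and in 32.5% of all genes. A match is a description of the letters and does not show a bound site.

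The 50 ppm animals were also set against the 1 and 10 ppm animals, which are other animals than the controls. This contrast of 50 ppm with the mean of both lower groups called 15 probes (0.577%), of which 14 rose (0.538%), and 274 were at an unadjusted p under 0.05. Of the 15, 12 were in the lists of CAR, PXR or NRF2 targets, which hold 2.54% of the probes tested, and 0 in the mitosis list, which holds 1.88%. The DNA replication list, with 35 probes tested, held 1 of the 15, Pole. The lists were chosen with earlier results of these data known, so these counts are descriptions and do not test enrichment. The 12 include Gsta1, Gm3776 and Gsta2, which are not counted as independent. Gsta1, Gm3776, Gsta2, Gstp1 and Ces2c were called in both contrasts. The exposed animals are the same in both, so that these are not independent.

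Gsta1 ranged from 14 to 59.6 CPM at 1 and 10 ppm (median 35.1), and all 5 animals at 50 ppm lay above that. Its change against them was 2.91 ± 0.33 (edgeR adjusted p = 8.35e-09). For Gsta2, where the controls had overlapped with the exposed animals, the lower groups reached only 49.6 CPM, all 5 exposed animals exceeded them, and the change was 2.05 ± 0.32 (edgeR adjusted p = 2.98e-05). Ces2c changed by 0.97 ± 0.14 (edgeR adjusted p = 4.77e-06).

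P450 enzymes passed here that had not passed against the controls. Cyp2a5, which oxidises coumarin, changed by 1.39 ± 0.29 (edgeR adjusted p = 0.00843), with the lower groups at 421 to 936 CPM and the exposed animals at 1477, 1519, 828, 3754 and 1339.5 CPM. The 4 animals other than 303 lay above the lower groups. Cyp2c55 changed by 1.24 ± 0.27, Cyp2c29 by 0.74 ± 0.17 and Cyp1a2, an AhR and CAR target, by 0.37 ± 0.09, at edgeR adjusted p of 0.0137, 0.0208 and 0.0409. Nqo1, the quinone reductase of the NRF2 response, changed by 0.69 ± 0.16 (edgeR adjusted p = 0.0208), from 16.5 to 35.4 CPM in the lower groups to 33.1, 34.8, 40, 46 and 29 CPM. Nqo1 overlapped in 3 of the 5 animals. This contrast was refitted in 6 other settings, with DESeq2 and without each exposed animal. Cyp2a5 was called in 5 of them, Cyp2c55 and Nqo1 in 4, Cyp2c29 in 3 and Cyp1a2 in 2.

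The same genes were at 0.73 ± 0.31 for Cyp2a5, 0.44 ± 0.18 for Cyp2c29, 0.25 ± 0.10 for Cyp1a2 and 0.25 ± 0.17 for Nqo1 against the controls, none of which passed. The transporter Abcc3 and the carboxylesterase Ces1g were at 0.39 and 0.38 against the controls (edgeR adjusted p = 0.0523 and 0.08), and at 0.39 and 0.46 against the lower groups, where both were called. Pole, the catalytic subunit of DNA polymerase epsilon, and Gnpda1, an enzyme of glucosamine metabolism, were also called there, at 0.93 ± 0.23 and 0.55 ± 0.14. The only probe lower at 50 ppm in this contrast, 4921509J17RIK, had 0 CPM in all 5 exposed animals and at most 0.615 CPM in the lower groups. Over the same 6 settings it was called in 0, Abcc3 and Pole in 2, and Ces1g and Gnpda1 in 3. Gsta1, Gm3776, Gsta2 and Ces2c were called in all 6 and Gstp1 in 4.

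None of the 13 division genes was called against the lower groups. Their changes there ran from 0.29 to 2.96, all positive. Cdk1 was at 1.60 ± 0.49 (edgeR adjusted p = 0.17), with the lower groups at 0.124 to 6.61 CPM, the highest of which was animal 203. Only animal 303 exceeded that. The contrasts differ by the mean of 1 and 10 ppm against 0 ppm, and that difference was not tested. Against 0 ppm, the CAR and PXR list had a median of −0.21 at 1 ppm and −0.11 at 10 ppm. Each of these concentrations alone had 0 probes called against 0 ppm, which does not settle whether the contrasts differ.

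**Figure D2:**
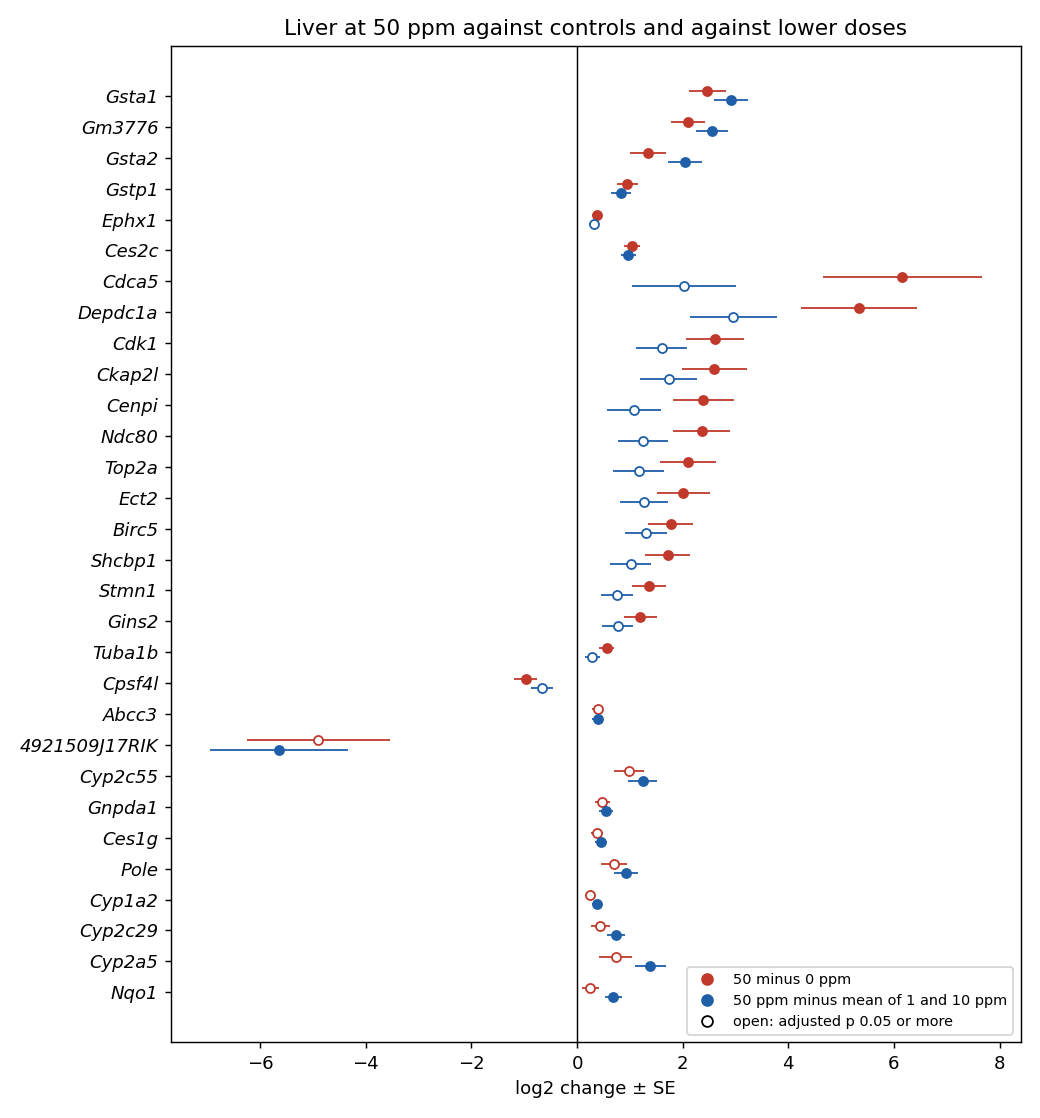
Log2 change ± SE in liver at 50 ppm against 0 ppm (red) and against the mean of 1 and 10 ppm (blue) for the genes called in either contrast; open symbols did not pass. Among the 6 detoxification genes 5 are filled in blue, all but Ephx1, with Gsta1 at 2.91. The 13 division genes called against 0 ppm are filled in red only, and Pole, a DNA replication gene, is filled in blue only.

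Relative to the other concentrations, 50 ppm was the lowest at which any probe was called against 0 ppm. At 1 and 10 ppm 0 probes were called (0%), where the unadjusted p was under 0.05 for 5.42% and 2.92% of them, while 5.96% were called at 150 ppm and 31.6% at 400 ppm. These contrasts share the controls with 50 ppm, so their values are set side by side only. Of the 20 genes, 17 were called at 150 ppm and 20 at 400 ppm, in the same direction. Gsta1 changed by −0.57 ± 0.35 at 1 ppm, −0.32 ± 0.38 at 10 ppm, 2.47 ± 0.35 at 50 ppm, 5.5 ± 0.40 at 150 ppm and 7.37 ± 0.42 at 400 ppm. Cdk1 had 0.48 ± 0.57, 1.52 ± 0.58, 2.60 ± 0.55, 2.26 ± 0.57 and 3.76 ± 0.56 in the same order.

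The step above 50 ppm was tested directly. The 20 called genes were chosen on values of these same 50 ppm animals, which can make their steps from 50 ppm look smaller. The size of that effect was not tested. From 50 to 150 ppm 30 probes were called (1.15%), 29 of them up, and they included 5 of the 6 detoxification genes, all but Gstp1, and none of the 13 division genes. Gsta1 rose by 3.03 ± 0.41 in that step, Ces2c by 1.08 ± 0.17 and Ephx1 by 0.69 ± 0.11, at edgeR adjusted p of 4.47e-07, 1.8e-05 and 2.26e-05. Cyp2b10, which had not passed at 50 ppm, rose by 2.34 ± 0.29 (edgeR adjusted p = 6.92e-08), to 272 to 573 CPM. Cyp2c55 rose by 3.28 ± 0.35 (edgeR adjusted p = 9.59e-10).

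For Cdk1 the step was −0.34 ± 0.59 and for Top2a −0.23 ± 0.59, neither of which passed. At 150 ppm Top2a was at 15.2 to 21.8 CPM in the 4 animals, a narrower range than the 2.89 to 59.8 CPM at 50 ppm. Cpsf4l was at 24.8 to 40.7 CPM at 150 ppm and at 17.1 to 30.1 CPM at 400 ppm, and its step from 50 to 150 ppm was 0.02 ± 0.25. From 50 to 400 ppm 640 probes were called (24.6%). All 6 detoxification genes and 7 of the 13 division genes were among them.

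**Figure D3:**
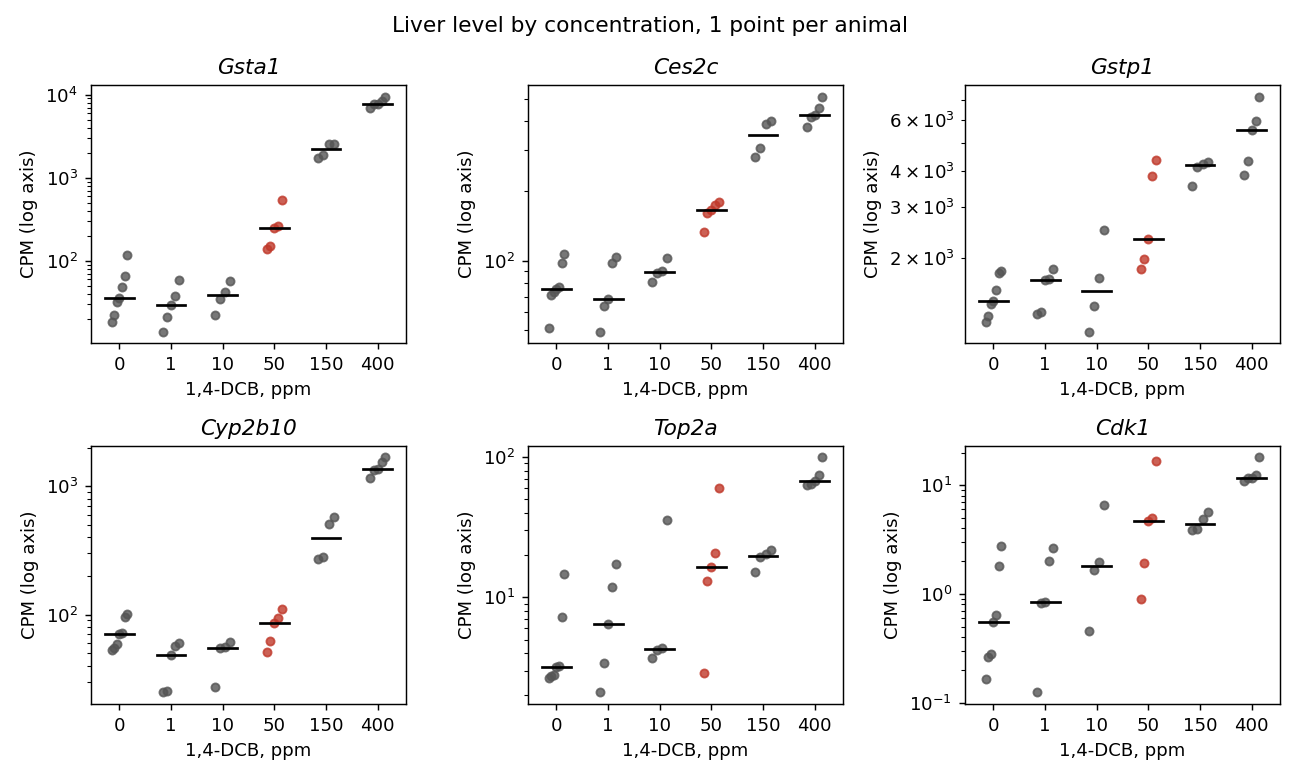
Liver CPM (log axis) of 6 genes in each animal at 0, 1, 10, 50, 150 and 400 ppm 1,4-DCB, with the concentrations evenly spaced, 50 ppm in red and bars at the medians. Gsta1 and Ces2c at 50 ppm stand above all lower groups, Cyp2b10 does not, and Top2a at 50 ppm runs from 2.89 to 59.8 CPM.

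The isomer 1,2-DCB, with the chlorines on neighbouring carbons, was given at other concentrations, and its values are stated without comparison. Against its own 0 ppm group, Gsta1 changed by 2.72 ± 0.32 at 30 ppm and 5.40 ± 0.35 at 100 ppm. Ces2c changed by 0.87 ± 0.14 and 1.12 ± 0.14. Cdk1 was at −0.88 ± 0.68 at 30 ppm, which did not pass, and at 2.60 ± 0.52 at 100 ppm.

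The labels number the animals, and the same numbers recur in other tissues. In lung, 10 controls and 5 animals at 50 ppm, 33 of 2756 probes rose and 0 fell (1.2%). Of the 20 genes called in liver, 19 were tested in lung and 6 were called: Gm3776, Cdk1, Ckap2l, Ect2, Top2a and Gins2. Top2a in lung was at 23.9 to 49.9 CPM in controls and at 80.4, 92, 71.9, 49.8 and 57.9 CPM in animals 301 to 305, a change of 0.92 ± 0.21 (edgeR adjusted p = 0.0105). Animal 304 was the lowest here as in liver, and was inside the control range, while animal 303 did not stand out. Gm3776 was at 2.68 to 5.88 CPM in lung controls and at 6.32 to 9.94 CPM in exposed animals, without overlap, and changed by 0.84 ± 0.17 (edgeR adjusted p = 0.00164).

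In lung, Gsta1 was at 0.63 ± 0.24 and Gstp1 near 0, and neither was called. The lung also held Ces1g, at 2.22 ± 0.24, and Nqo1, at 0.85 ± 0.14, among its called probes (edgeR adjusted p = 1.29e-09 and 6.12e-05). The mitosis list had a median of 0.68 in lung over 48 probes, −0.37 in kidney over 48, 0.52 in heart over 38 and 0.10 in ovary over 48. In kidney, heart and ovary edgeR called 0 probes (0%), with 193, 171 and 179 at an unadjusted p under 0.05. DESeq2 called 7 in kidney, 0 in heart and 1 in ovary. Whether tissues differ was not tested.

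**Figure D4:**
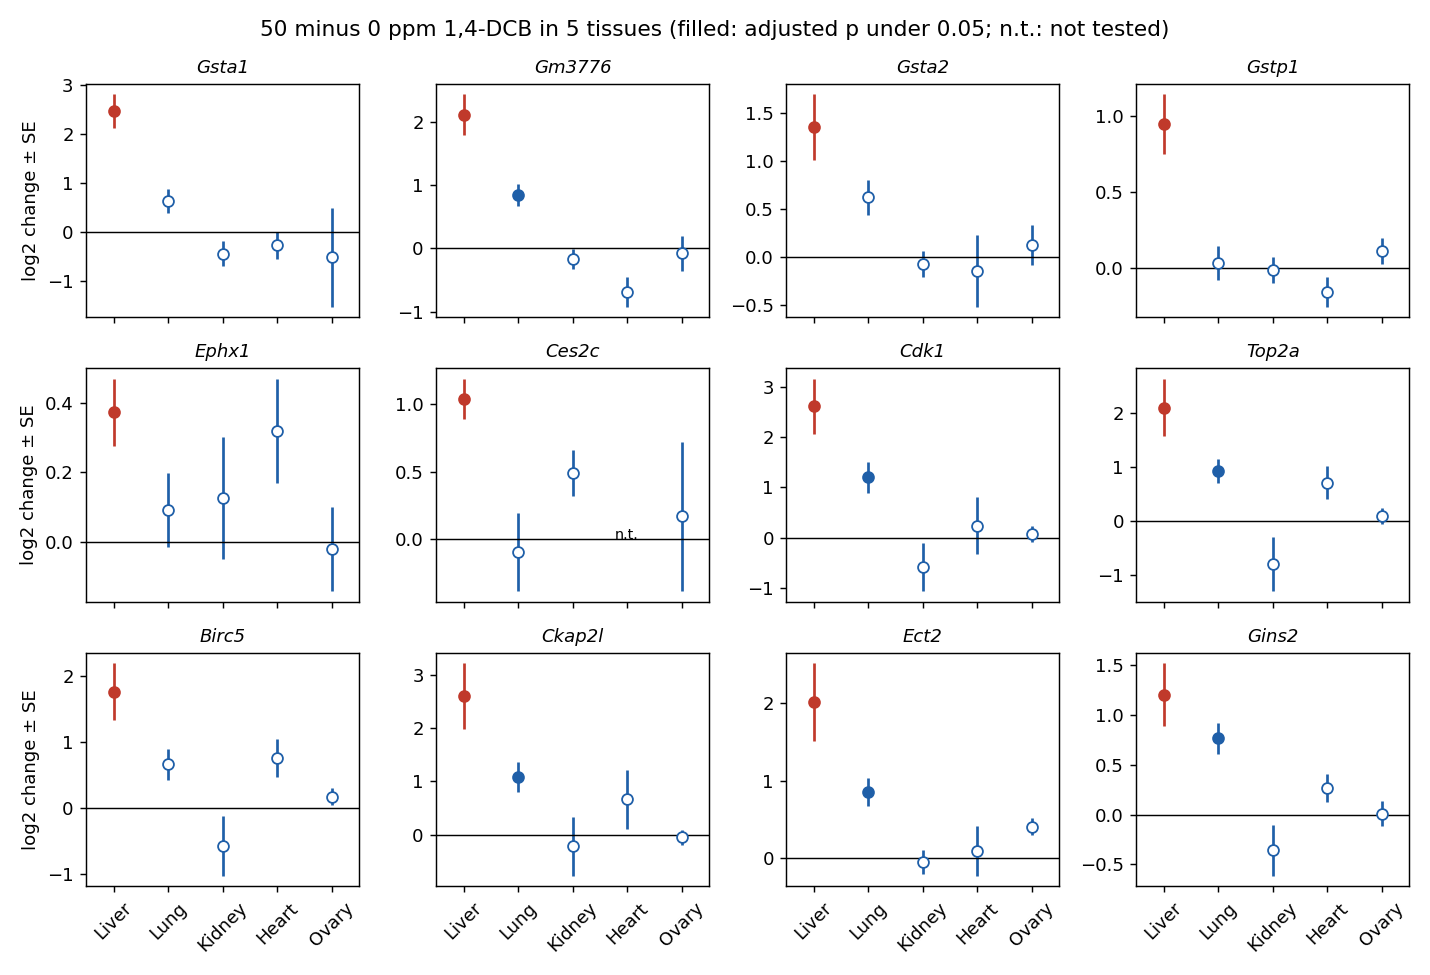
Log2 change ± SE at 50 against 0 ppm in 5 tissues for the 6 detoxification genes and 6 division genes; each panel has its own scale, filled symbols passed an adjusted p of 0.05, and n.t. marks a probe that was not tested. The liver passed in every panel by the choice of genes, and the lung passed for Gm3776, Cdk1, Top2a, Ckap2l, Ect2 and Gins2.

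The calls in liver moved with single animals in both groups. Leaving out 1 control at a time gave 23 calls without animal 1, 51 without animal 2, 7 without 3, 6 without 4, 6 without 5, 10 without 7 and 9 without 10. Among exposed animals the counts were 25 without 301, 20 without 302, 3 without 303, 57 without 304 and 21 without 305. Gsta1, Gm3776 and Ces2c were the 3 genes called without animal 303. The clock-output gene Dbp, whose RNA swings over the day, was at 4.89 to 73 CPM in controls, at 5.42, 7.80 and 6.49 CPM in animals 301 to 303, and at 244 and 130 CPM in animals 304 and 305. With Dbp as a covariate 43 probes were called, among them all 20. Its part in the differences between animals was not tested beyond that.

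**Figure D5:**
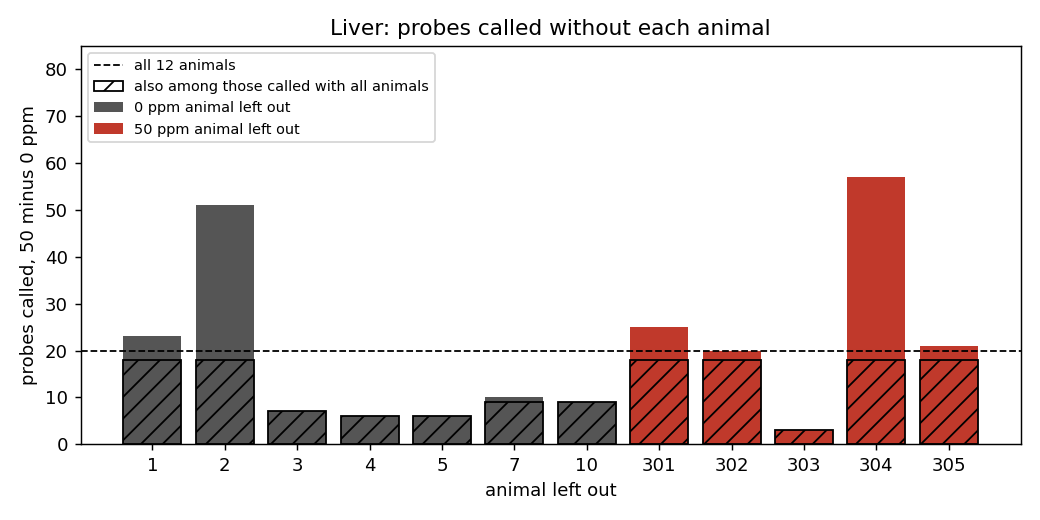
Number of probes called in liver at 50 against 0 ppm when each animal is left out (gray: a control, red: an exposed animal); the hatched part was also called with all 12 animals, and the dashed line is that count of 20. Bars range from 3 without animal 303 to 57 without animal 304.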

How the data were processed

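TempO-Seq counts of reads per probe were deposited by the authors as 1 table of 3154 probes with attenuation-adjusted values. The submitters' processing notes name Bowtie 1.3.1, and the genome build, probe sequences and attenuation factors are not given in the sources used here. All 20 called probes had no visible factor. Probes in the 61 liver libraries labelled as used were fitted in R 4.3.3 with edgeR 4.0.16 (TMM, filterByExpr over 12 groups of both isomers, quasi-likelihood test, two-sided), and p was adjusted by the Benjamini-Hochberg method over 2601 probes and called under 0.05. The 12 groups share 1 estimate of the spread. Other tissues were fitted alone. CPM uses the effective library size, with a prior count of 2 on the log scale. Single genes were checked with an exact permutation test of mean log2 CPM over 12 animals. DESeq2 1.42.0 and limma-voom 3.58.1 were alternatives, with other scalings, filters, sample sets, covariates and left-out animals. Where a gene had several probes, the smallest p was used.

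Members, genes and lists were chosen with earlier results of these data known, so list counts are descriptions. Genes were named if called at 50 ppm, if among the 10 smallest p of those called against 1 and 10 ppm, as the 3 smallest p of each pathway list, or as fixed markers, and those printed are examples of these, with others called against the lower groups added after their values were seen. Gene coordinates and promoters are from RefSeq (GRCm38.p6). The 3 liver controls left out, labelled for depth, had 0.094 M to 0.111 M counts (M, 1000000). Of 31 pairs of libraries within the 2 groups, 0 were identical, with a smallest chi-square per degree of freedom of 35.5. The fit was tested on simulated data. The labels number the animals, and p-values measure the spread between animals, which may include technical spread.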

Additional observations from a re-analysis of the deposited data

Results flagged for a closer look

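For each of the 20 called genes, the distance of the most extreme animal from its nearest neighbour was taken as a share of the group's range in CPM, in 39 groups with a range above 0. The limit used is one that chance passes in about 5% of groups where values follow a normal curve. Here 10 of 39 groups were past it, each at its highest animal. Whether CPM follows such a curve was not tested, so the count is a description and is not set against the 5%. Animal 303 stood apart at 50 ppm in 7 genes: Depdc1a (0.831 of the range), Cdk1 (0.737), Ndc80 (0.796), Stmn1 (0.812), Birc5 (0.714), Ect2 (0.768) and Cdca5 (0.919). All 7 are genes of cell division, which rise and fall together, so these are not separate observations. Among controls, animal 2 stood apart for Ndc80 (0.608) and Top2a (0.613), and animal 1 for Depdc1a (1 of the range), where it held the only counts of the group.

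The 3 liver libraries at 0 ppm that the labels leave out for depth held high values of genes called at 50 ppm. Gm3776 was at 1096 CPM in animal 6, 1902 CPM in animal 8 and 498 CPM in animal 9, against at most 102.6 CPM in the 7 controls used. Ces2c was at 126.8, 250.3 and 133.998 CPM in animals 6, 8 and 9, from 14, 30 and 14 counts, against at most 106.9 CPM. Gsta1 was at 960.0 and 2052 CPM in animals 6 and 8 and at 57.4 CPM in animal 9, against at most 116.8 CPM. Gstp1 was at 2174, 2820 and 1206 CPM in animals 6, 8 and 9, against at most 1802 CPM. Gsta2 was at 199.2, 442.2 and 86.1 CPM, against at most 105.4 CPM. Ephx1, at 72.5, 83.4 and 47.9 CPM, did not exceed the highest used control of 105.2 CPM. Some division genes were also high in animal 8: Top2a at 66.7, Birc5 at 58.4, Gins2 at 66.7 and Ndc80 at 33.4 CPM, from 4 to 8 counts. The used controls reached 14.6, 13.5, 18.4 and 2.21 CPM. In animal 6 only Birc5 and Gins2 of these were above the used controls, and in animal 9 all had 0 counts. Cdca5 and Depdc1a had 0 counts in all 3 libraries. The 3 left-out libraries held 0.094 M to 0.111 M counts against at least 15.1 M in the controls used, and the part of depth in these values was not tested.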

How the results depend on the processing

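The count of 20 probes at 50 ppm was 41 with DESeq2, 6 with limma-voom, 43 with Dbp as a covariate, 2 with all libraries, 6 with the 1,4-DCB groups alone, 1 (Ces2c) with the 0 and 50 ppm groups alone and 5 with the left-out control of animal 8 added. With that control of animal 8 added, Gsta1 was at 0.83 and Gstp1 at 0.81, neither of them called. Leaving out 1 animal gave 3 to 57 probes. It stayed within 1.5 times at 16 to 19 with other scalings, filters, a robust fit, a red cell covariate or the attenuation factors undone. The direction of all 20 genes was the same in every setting run except with all libraries, where Gsta1 was at −0.043 and Gm3776 at −0.66. In that setting Cyp2b10 was at −0.063, and with Dbp as a covariate Dbp itself was at −0.0032. The all-libraries setting adds the shallow controls, and the cause of the other shifts was not tested. Against 1 and 10 ppm, 15 probes became 8 to 11 without 1 exposed animal and 18 with DESeq2. The step to 150 ppm (30 probes) gave 19 to 53, that to 400 ppm (640) 536 to 644. In lung, 33 probes became 15 with all libraries and 12 to 38 without 1 exposed animal. DESeq2 called 7 in kidney and 1 in ovary, where edgeR called 0. No paired analysis was possible because the 0 and 50 ppm groups share no animal number. Division genes under 1 CPM in controls rest on few counts. None of the 13 division genes was called with limma-voom, the 1,4-DCB groups alone, the 0 and 50 ppm groups alone (11 tested) or without animal 303. Without control 3, 4 or 5, 2 of them were called. Without control 7 or 10, or with the left-out control of animal 8 added, 3 were called.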
